A study of Homo sapiens with 8 samples.

Results

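The genes described here encode proteins of the human centromere and kinetochore: the chromatin of the centromere, the protein layers built on it, the microtubule couplers, the checkpoint proteins recruited there, and the chromosomal passenger and shugoshin proteins that work beside them. They were taken by symbol from a list of 44 that sets no threshold on a measured value, although the list was drawn up with earlier results of these data known. All 44 symbols were found among the 21510 gene rows of the deposited RPKM table (reads per kilobase of transcript, scaled to the mapped reads of the library). Of these, 42 passed a filter of at least 1 RPKM in at least 2 libraries and were tested, and NSL1 and CENPV did not pass it. Of the 42, 11 reached 1 RPKM in no library with tetracycline. These were CENPA, CENPE, CENPI, CENPJ, CENPK, NUF2, SPC25, SKA3, CASC5, SGOL1 and SGOL2. CENPF and SKA1 reached it in Tet replicate 2 (1.196 and 1.01 RPKM) and in no other library with tetracycline. None of these genes could have passed without the control libraries, so that for them a lower value with tetracycline was built into the filter.

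The centromere is the place on each chromosome where the kinetochore assembles and spindle microtubules attach. It is marked by nucleosomes that carry CENPA, a histone H3 variant which the chaperone HJURP deposits. The constitutive centromere-associated network (CCAN) sits on this chromatin through the cell cycle, and in mitosis it recruits the KMN network, made of KNL1 (here under its older symbol CASC5), the MIS12 complex and the NDC80 complex, the last of which binds the microtubule. The SKA complex strengthens that grip, the spindle checkpoint holds anaphase until every kinetochore is attached, and the chromosomal passenger complex corrects wrong attachments. Transcripts of many of these genes are made mainly in the G2 and M phases, so that their level in a cell population is also a known mark of how many cells are dividing. In epidermis, dividing cells are found chiefly in the basal layer, where EGF receptor ligands such as amphiregulin promote growth.

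All samples were N/TERT-2G cells, a telomerase-immortalised human keratinocyte line, and all of them, controls included, carried a short hairpin RNA to AREG, the amphiregulin gene, under tetracycline control. The control group (3 libraries) received no tetracycline, the Tet group (3 libraries) received tetracycline at 1 µg/ml, and the Tet+EGF group (2 libraries) received the same tetracycline with recombinant EGF at 20 ng/ml. Every group was collected at 60 h from subconfluent cultures. There was no group with tetracycline and no hairpin and none with EGF alone, so that an effect of the drug itself and one of the hairpin cannot be told apart. The sample descriptions name 2 batches: batch 1 held control and Tet replicates 2 and 3, and batch 2 held control and Tet replicates 1 and both Tet+EGF libraries.

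AREG stood between 188.8 and 315.6 RPKM in the control libraries and between 6.63 and 20.9 RPKM in the 5 libraries with tetracycline. Read totals per library were not used here. Depth relative to control replicate 1 was estimated from the spacing of low RPKM values and lay between 63.3% and 111%, with a factor of 2 not settled. Control replicate 1 stood apart from the other controls for these genes. It was below both of them in 38 of the 42 tested members, against 34.0% of all genes tested, and the summed RPKM of all 44 members was 386.3 in it and 548.8 and 547.0 in control replicates 2 and 3. Of 8 keratinocyte markers all 8 passed the filter, with KRT5 and KRT14 the highest. With Tet 5 of them rose and 3 fell, against 26.2% and 29.9% of all genes tested. Their summed RPKM was 22370 to 25110 in control, 34630 to 37910 in Tet and 19380 to 20040 in Tet+EGF libraries.

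With the hairpin induced, most centromere and kinetochore genes were lower than in control. Of the 42 tested, 39 fell, 0 rose and 3 (CENPB, CENPT and CENPP) did not pass the test (limma on log2(RPKM + 0.5), Benjamini-Hochberg adjusted p under 0.05 over all 12567 genes tested). Among all genes tested, 29.9% were called lower and 26.2% higher in the same comparison. The median log2 fold change over the 42 was -1.70, with a range from -3.22 to 0.45, and over all genes tested it was -0.04. In 38 of the 42 every control library was above every Tet library, which held for 26.0% of all genes tested. The genes that could not pass the filter without the controls (the 11 above, CENPF and SKA1) are in both counts. Their lower Tet values were built into the filter. With no filter on low values, 38 of 44 members were called lower, against 20.6% of all genes in that fit. At an unadjusted p under 0.05, 39 of the 42 were lower and 2 higher. The share of all genes at that unadjusted threshold was not counted, so these numbers have no background beside them. Over all 44 members the median Tet level was 26.2% of the control level, and the summed RPKM in the Tet libraries was 196.0, 213.6 and 209.0. In these bulk samples, fewer dividing cells and less RNA per cell cannot be told apart.

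**Figure D1:**
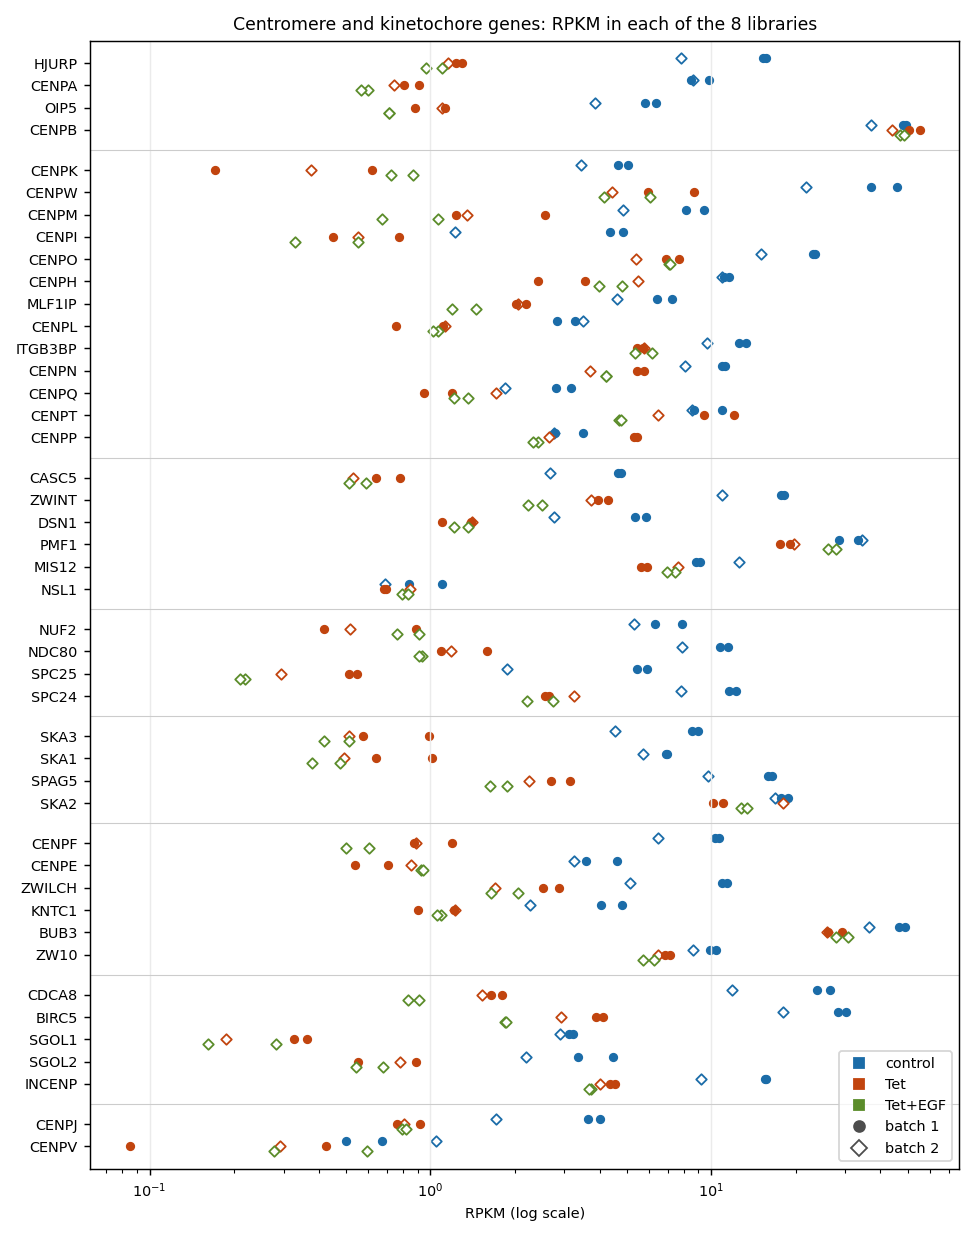
RPKM of each of the 44 genes (rows, grouped by role) in each library on a log axis, with colour for the group and symbol for the batch (filled circles batch 1, open diamonds batch 2). Control points lie to the right of all Tet points in 39 of the 44 rows, and CENPB, CENPT, CENPP, SKA2 and NSL1 are the rows where they do not.

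The promoters of the members were read next, because genes that peak in G2 and M are known to share a short element near their start sites, the cell cycle genes homology region (CHR), through which the MuvB complex with MYBL2 and FOXM1 binds. RefSeq promoter windows (GRCh38.p14, 250 bases before to 50 after each gene's start) were matched for 37 of the 44 members. CENPH, CENPL, CENPM, KNTC1, CASC5, BIRC5 and BUB3 were not matched. The CHR was searched as TTTGAA or TTCGAA, and the CCAAT box as CCAAT, both on either strand. The CHR words were in the window of 18 of 37 members (48.6%) and of 19.5% of 27305 gene symbols with a window. Within 50 bases of the start, a distance chosen after the positions were seen, they were found in 16 of 37 members (43.2%) and 6.24% of all symbols. A match is a description of these letters and not a measured site.

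Stretches of 100 bases, from 80 before the annotated start to 20 from it on, are printed for members that stand at different points of the range of change. Capitals mark the CHR words and CCAAT boxes, as TTTGAA or TTCGAA and CCAAT or as their reverse complements TTCAAA and ATTGG. The first 5 hold a CHR word and belong to genes that fell by more than 1.5 on the log2 scale. The sixth holds such a word and belongs to CENPN, which fell less, and the last, of CENPB, holds neither and was not called. No stretch is printed for a member that fell without a CHR word, such as CENPK (-2.475), CENPE (-1.846), SPC24 (-1.719) and CENPI (-1.711). That of HJURP (-2.896), whose word begins at -111, is not printed either.
CDCA8, chr1:37692436-37692535, plus strand: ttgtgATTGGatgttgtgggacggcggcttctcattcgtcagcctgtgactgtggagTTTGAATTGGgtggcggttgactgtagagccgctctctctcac
CENPA, chr2:26785976-26786075, plus strand: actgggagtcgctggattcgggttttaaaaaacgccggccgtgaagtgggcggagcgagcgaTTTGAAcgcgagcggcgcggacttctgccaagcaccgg
SKA3, chr13:21176533-21176632, minus strand: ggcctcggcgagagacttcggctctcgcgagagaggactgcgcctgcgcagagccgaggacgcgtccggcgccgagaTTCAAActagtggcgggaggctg
NDC80, chr18:2571477-2571576, plus strand: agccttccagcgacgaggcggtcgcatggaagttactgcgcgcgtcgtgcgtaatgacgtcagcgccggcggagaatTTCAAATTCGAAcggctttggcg
ZWINT, chr10:56361240-56361339, minus strand: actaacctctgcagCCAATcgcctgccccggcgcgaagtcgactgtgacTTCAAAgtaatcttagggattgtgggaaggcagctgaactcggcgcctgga
CENPN, chr16:81007134-81007233, plus strand: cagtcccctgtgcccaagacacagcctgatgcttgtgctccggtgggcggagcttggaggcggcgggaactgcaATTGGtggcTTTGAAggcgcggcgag
CENPB, chr20:3786721-3786820, minus strand: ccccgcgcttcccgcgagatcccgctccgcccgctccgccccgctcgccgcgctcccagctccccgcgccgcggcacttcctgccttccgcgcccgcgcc

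Counting the annotated start as base 0, the CHR word began at base -23 in CDCA8, -18 in CENPA, -31 in ZWINT and 3 in CENPN. In SKA3 it began at -3 on the opposite strand. NDC80 held 2 words side by side, the complement of TTTGAA from -3 and TTCGAA from 3. In CDCA8 the word shared its last base with a CCAAT box on the opposite strand. The median change with Tet was -2.30 (log2) for the 18 members with a CHR word (range -3.22 to -0.47) and -1.33 for the 17 tested members whose window held none (range -2.48 to 0.45). These ranges overlap: CENPK, at the low end of the second, held no CHR word but 3 CCAAT boxes, and ZW10, the weakest faller of the first, held its word at -224. CCAAT boxes were in 22 of 37 windows (59.5%, against 39.7% of all symbols), with a median change of -1.71 with and -1.71 without. Words of the E2F type (TTTCCCG or TTTCGCG or TTTGCCG or TTTGGCG) were in 8 (21.6%, against 10.4%), with medians of -1.51 and -1.72. A CHR word and a CCAAT box together were in 12 (32.4%, against 9.02%), with medians of -2.21 and -1.54. Genes that could not pass the filter without the controls stand on both sides of the CHR split, and their low Tet values were built into the filter. With the word these are CENPA, CENPF, NUF2, SPC25, SKA1, SKA3 and SGOL1, and without it CENPE, CENPI, CENPJ, CENPK and SGOL2. Members are not independent of each other here, and no test was made over them.

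**Figure D2:**
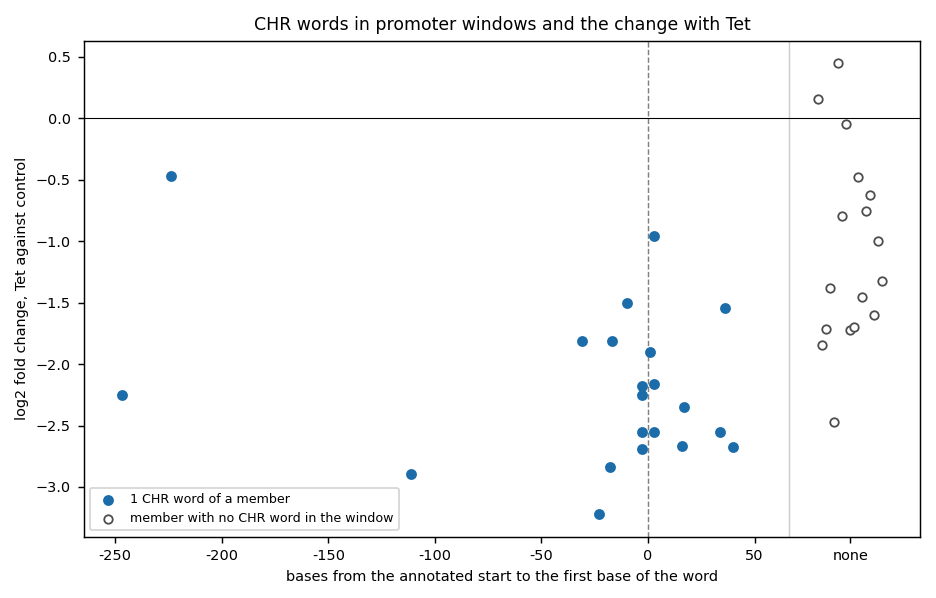
Each filled point is 1 CHR word in the promoter window of a tested member, placed by the distance of its first base from the annotated start (x axis, bases) and by the member's log2 fold change of Tet against control (y axis), and open points at the right are members with no CHR word. Most words lie within 50 bases of the start, and those at -111, -224 and -247 belong to HJURP, ZW10 and SPC25.

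Among the genes of centromere chromatin and CENPA loading, 3 of 4 fell (median -2.37). HJURP, the chaperone that brings new CENPA to the centromere, stood at 7.82, 15.3 and 15.6 RPKM in control, at 1.16, 1.29 and 1.23 in Tet, and at 1.10 and 0.965 in Tet+EGF libraries. The Tet libraries lay close together and far below the lowest control, with a log2 fold change of -2.90 (SE 0.17, limma adjusted p = 2.80e-05). CENPA itself, whose promoter stretch is shown above with a CHR word, was at 8.60, 9.80 and 8.49 RPKM in control, 0.742, 0.913 and 0.808 in Tet, and 0.601 and 0.568 in Tet+EGF. Its 3 controls were alike, the Tet mean was 9.16% of the control mean, with a log2 fold change of -2.84 (SE 0.10, limma adjusted p = 6.09e-06). OIP5, a subunit of the Mis18 complex that licenses the loading, fell from 5.34 ± 1.33 to 1.04 ± 0.137 RPKM (SD, n = 3 each), a log2 fold change of -1.91 (limma adjusted p = 1.15e-04).

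CENPB, which binds a short DNA box in centromeric satellite repeats and is not needed to build the kinetochore in mice, was not called. It was the most abundant member in control, at 37.1, 49.3 and 48.4 RPKM, with 44.2, 50.6 and 55.3 in Tet and 47.0 and 48.6 in Tet+EGF. The groups overlapped, with a log2 fold change of 0.16 (SE 0.07, limma adjusted p = 0.0781). Without Tet replicate 2 it was 0.21 and was called higher.

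Of the 13 genes of the constitutive network, 11 fell and 2 did not pass (median -1.33). CENPK, part of the group that carries the CENPH and CENPI subunits, was at 3.45, 4.64 and 5.06 RPKM in control and at 0.375, 0.617 and 0.171 in Tet, with 0.866 and 0.724 in Tet+EGF. All control libraries were well above the rest, and both Tet+EGF libraries were above all Tet libraries, at levels where few reads carry each value. Tet differed from control by -2.47 on the log2 scale (SE 0.21, limma adjusted p = 1.07e-04). CENPW, which pairs with CENPT through a histone fold, stood at 21.7, 45.7 and 37.0 RPKM in control, 4.42, 8.67 and 5.93 in Tet, and 6.04 and 4.16 in Tet+EGF. That is a log2 fold change of -2.35 (SE 0.19, limma adjusted p = 7.96e-05), with the last 2 groups overlapping.

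CENPT, the partner of CENPW and a direct link from centromere DNA to the NDC80 complex, was not called either. Its RPKM was 8.56, 8.68 and 10.9 in control, 6.44, 9.43 and 12.1 in Tet, and 4.69 and 4.76 in Tet+EGF. Control and Tet overlapped fully, with a log2 fold change of -0.04 (SE 0.15, 95% interval -0.40 to 0.32, limma adjusted p = 0.822). CENPT shares exonic sequence on the opposite strand with NUTF2, THAP11 and TSNAXIP1 (GENCODE v29), of which NUTF2 was at 101 to 133 RPKM. No source used here says whether the counting used strand, so reads of such pairs cannot be told apart and the CENPT level is uncertain.

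CENPP gave 2.75, 2.79 and 3.50 RPKM in control, 2.64, 5.32 and 5.44 in Tet, and 2.41 and 2.32 in Tet+EGF libraries. Only the 2 Tet libraries of batch 1 were raised. The log2 fold change of 0.45 (SE 0.17, limma adjusted p = 0.0557) was not called, and it was 0.70 in batch 1 and -0.05 in batch 2. IPPK, an inositol phosphate kinase gene whose exons overlap those of CENPP on the opposite strand, showed a like order, with 5.33, 7.70 and 7.35 RPKM in control, 8.37, 18.3 and 19.1 in Tet, and 7.68 and 6.82 in Tet+EGF. The share of IPPK reads in the CENPP value was not tested.

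The other members of the network fell by 0.79 to 1.85 on the log2 scale. CENPM (-1.85), CENPI (-1.71) and CENPH (-1.50) belong to the arm around CENPK, and CENPO (-1.54), MLF1IP (-1.33), CENPQ (-0.79) and ITGB3BP (-0.997) to the arm also called the CENPO complex, in which MLF1IP and ITGB3BP encode CENP-U and CENP-R. CENPL (-1.31) and CENPN (-0.96) form the pair that touches the CENPA nucleosome. CENPN, whose window holds a CHR word at base 3, fell less than most genes with such a word, from 10.1 ± 1.74 to 4.97 ± 1.11 RPKM (SD, n = 3 each). CENPQ was the weakest of the calls here (limma adjusted p = 0.0193), and it was lost when control replicate 2 or 3 or Tet replicate 2 or 3 was left out.

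All 5 tested genes of the MIS12 complex and KNL1 arm fell (median -1.46). CASC5, the KNL1 scaffold that recruits the BUB checkpoint proteins, was at 2.66, 4.65 and 4.78 RPKM in control, 0.528, 0.780 and 0.642 in Tet, and 0.588 and 0.513 in Tet+EGF, a log2 fold change of -1.95 (SE 0.14, limma adjusted p = 5.22e-05). ZWINT, which binds KNL1 and tethers the RZZ complex, stood at 10.9, 18.1 and 17.8 RPKM in control, 3.74, 3.94 and 4.29 in Tet, and 2.23 and 2.50 in Tet+EGF. All 3 groups were separate from each other for ZWINT, in that order, and Tet differed from control by a log2 fold change of -1.81 (SE 0.13, limma adjusted p = 5.43e-05). DSN1, the MIS12 complex subunit through which Aurora B controls binding to the centromere, fell by 1.46.

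PMF1 and MIS12, subunits of the same complex, fell by less. MIS12 was at 12.5, 8.79 and 9.13 RPKM in control, 7.64, 5.88 and 5.60 in Tet, and 7.43 and 6.96 in Tet+EGF, a log2 fold change of -0.63 (SE 0.07, limma adjusted p = 4.40e-04). PMF1 was at 34.4, 33.2 and 28.5 RPKM in control and 19.8, 19.0 and 17.6 in Tet, a log2 fold change of -0.75 (SE 0.08, limma adjusted p = 3.11e-04). PMF1 has a read-through transcript with BGLAP and MIS12 overlaps DERL2 on the opposite strand, and no source used here says how such reads were counted. NSL1, the fourth subunit of the MIS12 complex, was not tested: it stood at 0.690, 0.837 and 1.10 RPKM in control, 0.849, 0.696 and 0.686 in Tet, and 0.793 and 0.829 in Tet+EGF, with overlapping groups.

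The 4 genes of the NDC80 complex, the rod whose outer end grips the microtubule, all fell (median -2.40). NUF2 was at 5.32, 7.89 and 6.28 RPKM in control, 0.518, 0.889 and 0.418 in Tet, and 0.761 and 0.914 in Tet+EGF, a log2 fold change of -2.67 (SE 0.18, limma adjusted p = 4.31e-05). NDC80, with the doubled CHR word shown above, was at 7.85, 11.5 and 10.7 RPKM in control, 1.18, 1.59 and 1.09 in Tet, and 0.933 and 0.908 in Tet+EGF, a log2 fold change of -2.55 (SE 0.14, limma adjusted p = 1.89e-05). These 2 genes encode the dimer at the microtubule end of the rod. The other dimer, at the kinetochore end, is encoded by SPC24 and SPC25. SPC25 fell by 2.25, from 4.41 ± 2.20 to 0.452 ± 0.139 RPKM (SD, n = 3 each), and SPC24 showed the smallest change of the class. SPC24 was at 7.83, 11.6 and 12.3 RPKM in control, 3.23, 2.64 and 2.56 in Tet, and 2.20 and 2.73 in Tet+EGF, a log2 fold change of -1.72 (SE 0.18, limma adjusted p = 2.46e-04).

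In the class of the SKA complex and SPAG5, all 4 genes passed as lower (median -2.36), but not alike. SKA3 was at 4.56, 8.57 and 8.97 RPKM in control, 0.512, 0.985 and 0.575 in Tet, and 0.513 and 0.418 in Tet+EGF, a log2 fold change of -2.69 (SE 0.17, limma adjusted p = 3.40e-05). SKA1, the subunit with the microtubule-binding domain, was at 5.71, 6.96 and 6.89 RPKM in control, 0.493, 1.01 and 0.639 in Tet, and 0.380 and 0.477 in Tet+EGF, a log2 fold change of -2.55 (SE 0.14, limma adjusted p = 1.85e-05). SPAG5, which encodes the spindle protein astrin, fell by 2.16, from 14.03 ± 3.74 to 2.69 ± 0.445 RPKM (SD, n = 3 each).

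SKA2, the third subunit of the same complex, stood at 16.8, 17.7 and 18.8 RPKM in control, 18.03, 10.997 and 10.1 in Tet, and 12.8 and 13.4 in Tet+EGF. The Tet library of batch 2 was at the control level and those of batch 1 were not. The log2 fold change of -0.48 (SE 0.17, limma adjusted p = 0.0460) was just past the threshold, and the call was lost when any of control replicates 2 and 3, Tet replicates 2 and 3 and the Tet+EGF libraries was left out. It was also lost with no filter on low values, with no batch term, with only the 2 groups compared, and under quantile or median-ratio scaling (limma adjusted p from 0.0738 to 0.119). The log2 fold change was -0.76 in batch 1 and 0.10 in batch 2. The SKA2 gene hosts the miRNA genes MIR454 and MIR301A, which the table lists at 0 in every library.

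All 6 genes of the corona, the RZZ complex and the checkpoint fell (median -1.52). CENPF, a large coiled-coil protein of the outermost kinetochore layer, was at 6.48, 10.3 and 10.7 RPKM in control, 0.890, 1.196 and 0.872 in Tet, and 0.602 and 0.502 in Tet+EGF. Its groups did not overlap at any step, and Tet differed from control by a log2 fold change of -2.68 (SE 0.15, limma adjusted p = 2.08e-05). CENPE, the kinesin that carries chromosomes along microtubules to the spindle equator, was at 3.26, 3.59 and 4.61 RPKM in control, 0.851, 0.705 and 0.538 in Tet, and 0.924 and 0.941 in Tet+EGF, a log2 fold change of -1.85 (SE 0.16, limma adjusted p = 1.23e-04). The RZZ complex, which brings dynein and checkpoint proteins to the kinetochore, is made of the products of KNTC1 (-1.34), ZWILCH (-1.70) and ZW10. ZW10, which also works in membrane traffic between Golgi and endoplasmic reticulum, changed least, with 8.61, 10.4 and 9.86 RPKM in control, 6.48, 6.84 and 7.15 in Tet, and 6.25 and 5.73 in Tet+EGF. Its groups were still separate, with a log2 fold change of -0.47 (SE 0.08, limma adjusted p = 0.00216). BUB3, a checkpoint protein that binds KNL1, fell by 0.69 from 44.0 ± 6.65 to 27.0 ± 1.93 RPKM (SD, n = 3 each).

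The 5 genes of the chromosomal passengers and shugoshins all fell by more than 2-fold (median -2.18). CDCA8, which encodes borealin, had the largest fall of all 42, from 11.9, 26.5 and 23.8 RPKM in control to 1.53, 1.64 and 1.80 in Tet, with 0.829 and 0.911 in Tet+EGF. The Tet mean was 8.01% of the control mean, a log2 fold change of -3.22 (SE 0.19, limma adjusted p = 2.55e-05). BIRC5, which encodes survivin, was at 17.95, 28.2 and 30.2 RPKM in control, 2.93, 4.11 and 3.87 in Tet, and 1.84 and 1.86 in Tet+EGF, a log2 fold change of -2.63 (SE 0.09, limma adjusted p = 5.86e-06). EPR1, a name that RefSeq lists as a synonym of BIRC5, has a row of its own in the table, with 27.8, 46.0 and 49.5 RPKM in control, 4.52, 6.70 and 6.06 in Tet, and 2.92 and 2.95 in Tet+EGF. How reads were divided between these rows is not stated, and the BIRC5 level is uncertain.

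INCENP, the scaffold that borealin and survivin bind and that activates Aurora B, showed the smallest fall of the passengers. It was at 9.19, 15.6 and 15.5 RPKM in control, 4.01, 4.53 and 4.35 in Tet, and 3.73 and 3.68 in Tet+EGF, a log2 fold change of -1.50 (SE 0.13, limma adjusted p = 1.11e-04). SGOL1 and SGOL2 encode the shugoshins, which guard cohesin at the centromere. SGOL1 fell from 3.07 ± 0.170 to 0.292 ± 0.0930 RPKM (SD, n = 3 each; log2 fold change -2.18) and SGOL2 from 3.34 ± 1.13 to 0.739 ± 0.170 RPKM (log2 fold change -1.60), both under 1 RPKM in every Tet library.

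A pair of members carry a CENP name but have other known roles or too low a level. CENPJ, a centriole assembly protein, was at 1.71, 3.65 and 4.003 RPKM in control, 0.802, 0.921 and 0.763 in Tet, and 0.789 and 0.817 in Tet+EGF, a log2 fold change of -1.38 (SE 0.20, limma adjusted p = 0.00104). CENPV was not tested, with 1.05, 0.670 and 0.501 RPKM in control, 0.291, 0.423 and 0.0850 in Tet, and 0.278 and 0.592 in Tet+EGF.

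**Figure D3:**
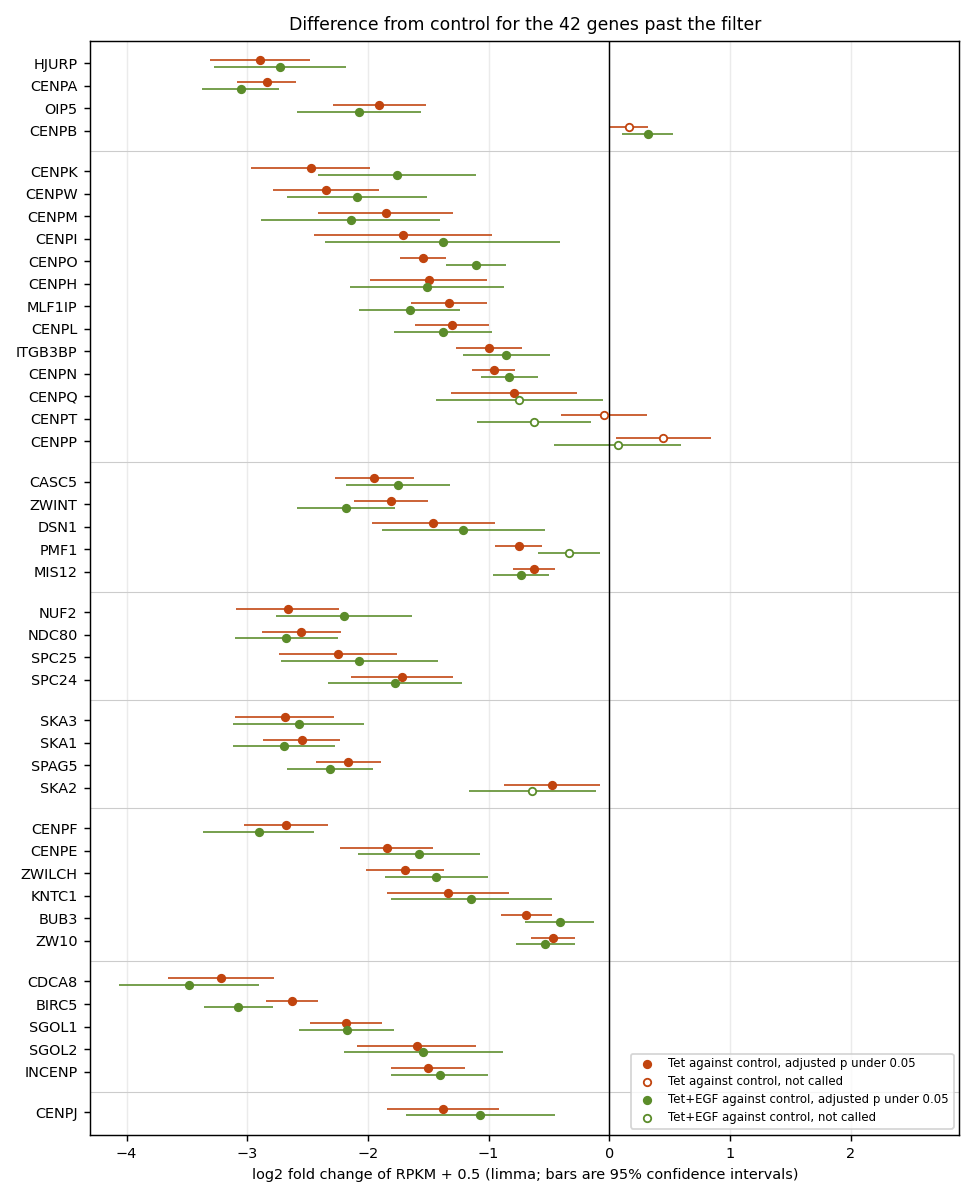
Fitted log2 fold changes of RPKM + 0.5 with 95% confidence intervals for Tet against control (orange) and Tet+EGF against control (green) for the 42 tested genes in their role classes, filled where the limma adjusted p was under 0.05. Intervals of 39 genes for Tet and 40 for Tet+EGF lie wholly below 0, and CENPB is the gene called higher in Tet+EGF.

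The median fall was larger in batch 1 than in batch 2. The median log2 difference between Tet and control over the 42 was -1.93 in batch 1 and -1.33 in batch 2, while over all genes tested it was -0.01 and -0.09. The test of the batch by Tet interaction called 13 of the 42 in either direction, a share near the 26.7% of all genes tested. The number of calls in both directions together thus does not set the members apart. A positive interaction, a smaller fall in batch 2, was called in 12 of the 42, against 9.24% of all genes tested. A negative interaction was called in CENPP alone, against 17.4% of all genes tested. Of the 13 calls among members 12 were positive. In the reference list of 13 proliferation genes read below, 10 were called positive and 0 negative. The median interaction was 1.17 over that list and 0.48 over the 42 members. In the list of 40 further genes read below, 9 were called positive and 7 negative. An excess of positive calls was thus not particular to the members. The split of the calls over all genes moved with the scaling: 34.6% were positive as fitted and 51.0% under median-ratio scaling. The median interaction over all genes was -0.08 and 0.02. The largest interaction was that of CENPI (1.503, SE 0.33, limma adjusted p = 0.0180), whose RPKM was 1.22, 4.35 and 4.84 in control and 0.551, 0.449 and 0.770 in Tet libraries. Control replicate 1 was far below the other controls there, and CENPI was lower in Tet than in control in each batch. DSN1, SPC25, KNTC1 and CENPJ had interactions of 1.04, 1.00, 0.99 and 0.93. In all 4 of them control replicate 1 was below the other controls.

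CENPQ and SKA2 had little or no difference left in batch 2, at -0.08 and 0.10, against -1.15 and -0.76 in batch 1. For these 2 genes the Tet library of batch 2 was the high one, with CENPQ at 1.84, 2.79 and 3.16 RPKM in control and 1.71, 0.950 and 1.198 in Tet. CENPA, by contrast, differed by -2.82 in batch 1 and -2.87 in batch 2. Batch 2 rests on 1 control and 1 Tet library, so its differences have no replicate of their own, and the batch and these single libraries cannot be told apart.

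**Figure D4:**
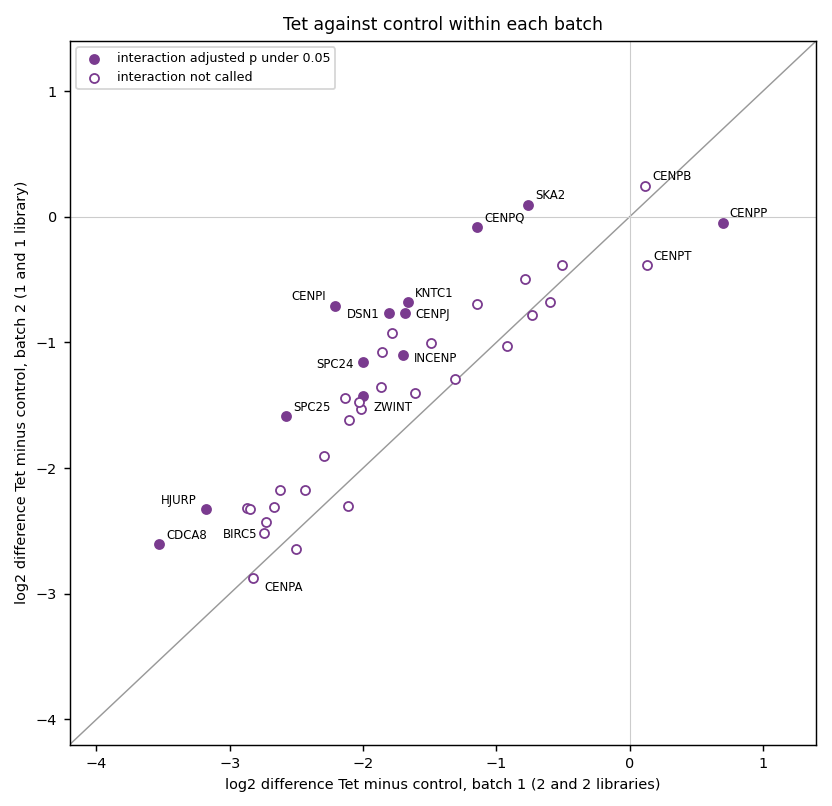
Each point is 1 tested gene, with its log2 difference between Tet and control in batch 1 (x axis, 2 libraries each) and in batch 2 (y axis, 1 library each), and the grey line marks equal differences. Filled points passed the interaction test, and 12 of those 13 lie above the line.

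EGF was added to cells with the hairpin to ask whether an outside ligand of the same receptor restores what changed. For most centromere and kinetochore genes no difference between Tet+EGF and Tet was detected. Of the 42 tested, PMF1 and CENPO were higher, BIRC5 was lower and 39 did not pass the test, while 9.82% of all genes tested were called higher and 9.15% lower. The median log2 difference was 0.05 (range -0.58 to 0.71), against 0.02 over all genes tested. For 37 of the 42 the 95% interval lay within a 2-fold difference in either direction, which bounds the difference without showing that the groups are alike. By plain order of the libraries, both Tet+EGF values were above every Tet value in 3 members (against 32.2% of all genes tested), below every Tet value in 17 (against 20.3%), and mixed with them in 22. The summed RPKM of the 44 was 197.5 and 196.2 in the Tet+EGF libraries.

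PMF1 stood at 25.9 and 27.8 RPKM in Tet+EGF against 19.8, 19.0 and 17.6 in Tet, with no overlap, a log2 difference of 0.41 (SE 0.11, limma adjusted p = 0.0385). Its Tet+EGF mean was 83.8% of the control mean. CENPO was at 7.05 and 7.15 RPKM in Tet+EGF and 5.40, 6.92 and 7.65 in Tet, where the groups overlap, and the log2 difference of 0.43 (SE 0.11, limma adjusted p = 0.0314) comes from the fit with batch, and within batch 2 it was 0.37. Controls for CENPO were at 15.1, 22.96 and 23.5 RPKM. CENPO overlaps ADCY3, an adenylyl cyclase gene, on the opposite strand, and ADCY3 was at 26.5, 33.2 and 34.3 RPKM in control, 9.32, 11.5 and 12.0 in Tet, and 13.3 and 12.6 in Tet+EGF. BIRC5, at the values given above, was lower in both Tet+EGF libraries than in any Tet library, with a log2 difference of -0.45 (SE 0.12, limma adjusted p = 0.0435).

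These 3 calls were not stable to single libraries. The count of members called lower was 0 when any of control replicates 2 and 3, Tet replicates 2 and 3 and the Tet+EGF libraries was left out, 2 without Tet replicate 1 and 5 without control replicate 1. The count called higher was 0 when control replicate 2 or 1 of the Tet+EGF libraries was left out, 1 when control replicate 3, Tet replicate 2 or Tet replicate 3 was, and 13 without Tet replicate 1, where the median rose to 0.42. Without that library 18.0% of all genes tested were called higher and 21.1% lower, against 9.82% and 9.15% with all libraries. The median over all genes tested was -0.04 there, so it did not rise with that of the members. The cause of the members' rise was not tested. Both Tet+EGF libraries are of batch 2, so the fitted value leans on the shift between batches seen in control and Tet libraries. Within batch 2, against its single Tet library, the median was -0.11 and 29 of the 42 were lower in Tet+EGF. The median of the same difference over all genes tested was 0.05.

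**Figure D5:**
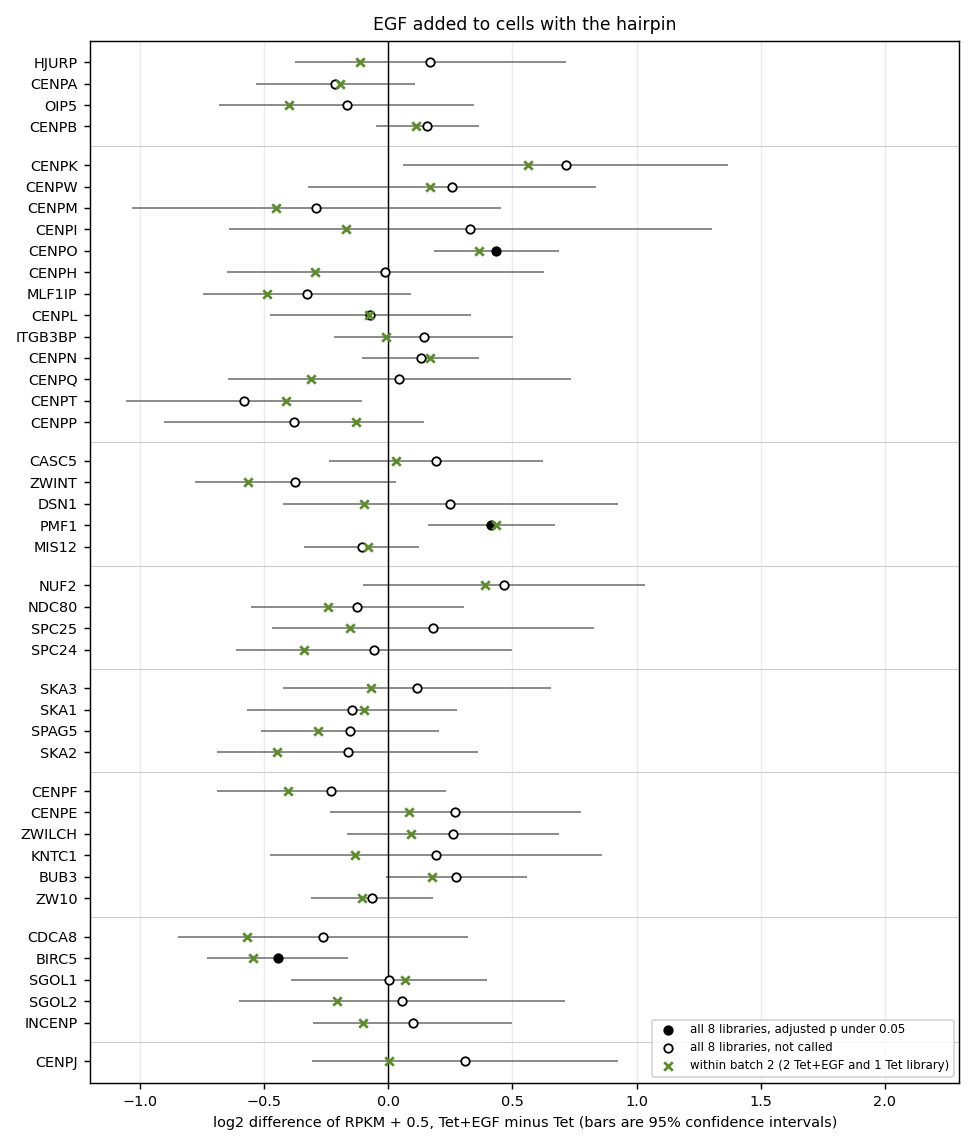
Log2 difference of Tet+EGF against Tet for the 42 tested genes (circles with 95% confidence intervals from the fit on all 8 libraries, filled where the limma adjusted p was under 0.05) and within batch 2 alone (green crosses). The circles run from -0.58 for CENPT to 0.71 for CENPK, and PMF1, CENPO and BIRC5 are the filled ones.

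Most of these genes were also lower in Tet+EGF than in control. Of the 42, 36 were lower, 1 (CENPB) was higher and 5 (PMF1, SKA2, CENPQ, CENPT and CENPP) did not pass, while 16.2% of all genes tested were lower and 16.0% higher. Every control was above both Tet+EGF libraries in 41 of the 42, against 27.8% of all genes tested. The genes that could not pass the filter without the controls (the 11 named at the start, CENPF and SKA1) are among the 36 and the 41. The median Tet+EGF level over the 44 was 22.6% of control. The median log2 fold change was -1.56, and within batch 2, against its single control, it was -1.38. CDCA8 (-3.48, SE 0.25, limma adjusted p = 2.39e-04), BIRC5 (-3.07) and CENPA (-3.05) had the largest falls, and CENPF (-2.91) and HJURP (-2.73) followed. The count called lower was 30 when 1 of the Tet+EGF libraries was left out, with BUB3, CENPI, CENPJ, DSN1 and KNTC1 lost in either case. SPC25, at 0.218 and 0.209 RPKM with EGF, was at 4.84% of its control mean. The Tet and Tet+EGF comparisons share the same control libraries and are not independent of each other.

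CENPB was called higher in Tet+EGF than in control, with a log2 fold change of 0.32 (SE 0.09, limma adjusted p = 0.0325), although its RPKM of 47.0 and 48.6 lay within the control range of 37.1 to 49.3. The within-batch value was 0.36, against the low control replicate 1 alone. The call was lost when any 1 of the 3 controls, Tet replicate 3 or any 1 of the Tet+EGF libraries was left out, and without the batch term. CENPT was lower by 0.62 with an interval from -1.10 to -0.15 and did not pass (limma adjusted p = 0.0524). It did pass with a pseudocount of 0.1, under either other scaling, with no batch term, with the replicate block, with only the 2 groups, in batch 2 alone, and without control replicate 2, Tet replicate 1 or Tet replicate 3. Over all alternatives its limma adjusted p ran from 0.00105 to 0.359, the highest without control replicate 1, where the log2 fold change was -0.28. In RPKM, both Tet+EGF libraries were below every control and every Tet library for CENPT. PMF1 and CENPT thus stood in opposite orders in the Tet and Tet+EGF libraries.

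A list of 40 further genes that act at centromeres and kinetochores or on their microtubules was read in the same fits. Between Tet and control 29 of the 40 fell, 3 rose and 8 did not pass, with a median of -0.81. Over all genes tested 29.9% were called lower and 26.2% higher. The 6 with the largest changes were AURKB, the passenger complex kinase (-3.21), CDC20, the target of the checkpoint (-3.17), PLK1, a mitotic kinase (-2.63), KIF2C, a microtubule depolymerase of the centromere (-2.57), BUB1 (-2.57) and MAD2L1 (-2.47), both of the checkpoint. AURKB was at 24.0, 50.2 and 45.1 RPKM in control, 2.92, 3.86 and 4.31 in Tet, and 2.47 and 2.28 in Tet+EGF, in the same order as its partners CDCA8 and BIRC5. The 3 that rose, named after their values were seen, were CLIP1 (0.98), DYNLT3 (0.72) and MAPRE1 (0.60), which encode microtubule and dynein proteins. Other genes of that kind in the list were called lower, among them CKAP5 (-1.07), CLASP2 (-0.78) and NDE1 (-0.55), likewise named after their values were seen. CENPC1, APITD1 and STRA13, named for their place in the constitutive network, gave -0.34, 0.07 and -0.43, and of these STRA13 passed (limma adjusted p = 0.00764). Between Tet+EGF and Tet 2 of the 40 were higher and 1 lower, fewer than the shares of 9.82% and 9.15% over all genes tested. Between Tet+EGF and control 22 were lower and 2 higher, against 16.2% and 16.0% of all genes tested.

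Markers of proliferation moved with the members. All 13 of a reference list fell between Tet and control (median -2.58), against 29.9% of all genes tested. Among them were MYBL2 (-3.71), FOXM1 (-3.06), RRM2 (-3.03), MKI67 (-2.97), CCNA2 (-2.80) and TOP2A (-2.76). Their summed RPKM was 221.0 to 524.7 in control, 76.4 to 87.5 in Tet and 57.4 to 65.04 in Tet+EGF libraries, with control replicate 1 the lowest control for each of the 13. MKI67 was at 14.5, 27.7 and 28.5 RPKM in control, 1.75, 3.13 and 2.65 in Tet, and 1.32 and 1.38 in Tet+EGF. The part of a changed share of dividing cells in the members' fall was not tested.

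Markers of other skin cells were also read. Of 10 fibroblast markers 3 passed the filter and 2 rose with Tet, DCN (3.96) and COL1A1 (2.07), while COL1A2, COL3A1, PDGFRA, PDGFRB and POSTN were at 0.0490 RPKM or less in every library. The summed RPKM of the 10 was 9.56 to 15.1 in control, 26.9 to 27.6 in Tet and 11.5 to 12.3 in Tet+EGF. Of 6 melanocyte markers 0 passed, with TYR at 0 throughout. Of 6 leukocyte markers CD68 and LCP1 passed and both fell with Tet, with PTPRC at 0.00500 RPKM or less, and their sum was 47.5 to 59.1 in control, 29.2 to 41.6 in Tet and 108.7 to 109.3 in Tet+EGF. Of 5 endothelial markers KDR, which rose with Tet, and ENG, which fell, passed, with PECAM1 at 0 throughout, and their sum was 9.43 to 10.4 in control, 5.87 to 10.7 in Tet and 8.11 to 8.35 in Tet+EGF. The part of other cells in the members' change was not tested beyond these values.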

How the data were processed

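RNA with poly(A) tails from 8 libraries was sequenced, each library in its own lane of an Illumina Genome Analyzer IIx flow cell, per the labels' protocols. RPKM values came in 1 table deposited by the authors. Reads were aligned with TopHat 1.3.3, per the submitters' processing notes. Counting tool, use of strand, genome build and gene models were not given in the sources used here.

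The filter of at least 1 RPKM in at least 2 libraries kept 12567 of 21510 genes. Values of log2(RPKM + 0.5) entered 1 limma model (version 3.58.1, R 4.3.3; lmFit and eBayes with trend) of all 8 libraries, with terms for group and batch. P-values are two-sided and were adjusted by Benjamini-Hochberg over all genes kept, and 0.05 was the threshold. Fold changes are on the log2(RPKM + 0.5) scale, which understates those of low genes. The interaction of batch and Tet came from the same model with 1 more term. Nothing in the labels shows that replicates came from separate cultures, so the spread behind the p-values is only that between these libraries and may be technical. Control and Tet libraries of the same number deviated together from their group means (correlations across genes 0.476, 0.314 and 0.338). Batch 1 libraries of different numbers did so too (0.272 and 0.334), so in batch 1 a shared number added little beyond the batch. Batch 2 holds 1 control and 1 Tet library, so number and batch cannot be told apart there. For Tet+EGF the same-number values were -0.31, -0.263, -0.137 and -0.155. The 2 Tet+EGF libraries deviate equally and oppositely from their mean, so each such value has a mirror of opposite sign with the other library and carries little.

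The members, roles and gene lists were chosen with earlier results of these data known. Every member may be named. Values per library are given for the 1 or 2 largest and the smallest changes of each role class, for members called between Tet+EGF and Tet, and for those not called between Tet and control, and at most 6 genes of each further list are named, with exceptions said. The 50-base distance for promoter words was set after positions were seen. Overlapping genes were taken from GENCODE v29 and promoter windows from RefSeq. The model was run on simulated data with planted changes and independent noise for each library. That run checks the fitting only, and it cannot show how stable the calls are to single libraries of these data. Alternatives were other pseudocounts, filters, scalings and model terms, single batches and the omission of each library in turn. Tables and figures were made in Python 3.11.15 (numpy 2.4.6, pandas 2.3.3, matplotlib 3.10.9).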

Additional observations from a re-analysis of the deposited data

Results flagged for a closer look

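For 13 of the 42 tested members the difference between Tet and control differed between the batches by the test of the interaction itself (limma adjusted p under 0.05). Over all genes tested the same test called 26.7%, so that this count over both directions is near the background. By direction, 12 of the 42 were positive, against 9.24% of all genes tested, and 1 was negative, against 17.4%. Of the 13 proliferation reference genes 10 were positive and 0 negative. The log2 interaction, positive where the fall was smaller in batch 2, was 1.503 for CENPI, 1.06 for CENPQ, 1.04 for DSN1, 1.00 for SPC25, 0.99 for KNTC1, 0.93 for CENPJ, 0.92 for CDCA8, 0.86 for SKA2, 0.85 for HJURP, 0.84 for SPC24, 0.60 for INCENP and 0.57 for ZWINT. For CENPP it was -0.75. The smallest limma adjusted p was 0.00446, for SKA2, and the largest was 0.0349, for CENPP. Depth also differed between the batches: it was 99.6% to 111% of that of control replicate 1 in the 4 libraries of batch 2 and 63.3% to 85.7% in the 4 of batch 1. The part of depth in these differences was not tested.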

How the results depend on the processing

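Between Tet and control, members called lower numbered 39 of 42, against 29.9% of all genes tested. With a mean RPKM of at least 5 they numbered 17 of 19, against 32.9%, and fewer members were tested. Members called higher numbered 0, and 2 under quantile normalization, 1 under median-ratio scaling, 1 in batch 1 alone and 1 in batch 2 alone, with 0 to 1 when each library was left out. The median log2 fold change was -1.70, against -1.88 and -1.49 with pseudocounts of 0.1 and 1, -1.50 with a mean RPKM of at least 5, -1.93 in batch 1 alone and -1.33 in batch 2 alone, and -1.93 to -1.57 with each library left out. SKA2 turned to 0.10 in batch 2 alone.

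Between Tet+EGF and Tet, members called lower numbered 1, and 0 with a pseudocount of 1, no filter, no batch term or median-ratio scaling, 4 with only the 2 groups (where 14.1% of all genes tested were lower) and 7 in batch 2 alone (18.9%), neither above the share over all genes, with 0 to 5 when each library was left out. Members called higher numbered 2, against 1 with no batch term, 1 under median-ratio scaling and 0 to 13 with each library left out. The median of 0.05 became -0.17 with no batch term, -0.11 with only the 2 groups or in batch 2 alone, and -0.11 to 0.42 with each library left out. SKA2 turned from -0.16 to 0.41 without Tet replicate 1 and was then called, and its values over the libraries left out ran from -0.45 to 0.41.

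Between Tet+EGF and control, members called lower numbered 36 of 42 (against 16.2% of all genes tested), and 16 of 19 with a mean RPKM of at least 5 (against 17.6%). They numbered 30 to 39 when each library was left out. Members called higher numbered 1, and 0 with no batch term and 0 to 1 with each library left out. The median of -1.56 became -1.92 and -1.36 with pseudocounts of 0.1 and 1, -1.11 with a mean RPKM of at least 5, -1.86 with no batch term, -1.38 with only the 2 groups or in batch 2 alone, and -2.06 to -1.38 with each library left out. The interaction called 13 of 42 members, against 7 of 44 with no filter and 7 of 19 with a mean RPKM of at least 5. Over all genes tested, 8.32% were called negative and 4.81% positive with no filter. With a mean RPKM of at least 5 these shares were 23.2% and 11.4%.

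With the replicate block in place of batch, 38 members fell between Tet and control and 0 rose, with a median of -1.70 and the SKA2 call lost. Over all genes tested 20.1% fell and 18.2% rose in that fit. Between Tet+EGF and Tet 0 members were lower and 0 higher, against 3.36% and 3.4% of all genes tested. Between Tet+EGF and control 0 members were higher, against 9.64% of all genes tested. The member median was -1.75 there, and CENPT was called (limma adjusted p = 0.0339). The cause of these changes was not tested beyond the smaller number of members or libraries named. Batch 1 alone holds no Tet+EGF library, and the interaction cannot be had without control or Tet replicate 1. In the Tet libraries 16 of 44 members had a mean under 1 RPKM, where few reads limit the precision.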
